A study of Mus musculus with 4 samples.

Results

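Ikzf2, Zeb2 and Foxp1 are genes of transcriptional regulators that act in T cells, and their DNA methylation was examined in NKT cells of the mouse. NKT (natural killer T) cells are lymphocytes whose receptor sees lipids held by CD1d. The deposited table lists windows of 100 bp. The windows taken were those overlapping the gene as annotated, extended by 1000 bp at both ends: 132 for Ikzf2 on chromosome 1, 192 for Zeb2 on chromosome 2 and 1260 for Foxp1 on chromosome 6. Together these are 1584 of 1048575 listed windows, and the 3 genes are among the 7668 protein-coding loci that had 20 reads or more.

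Methylated DNA immunoprecipitation sequencing (MeDIP-seq) was used. The assay enriches DNA fragments that carry 5-methylcytosine by means of an antibody, and a sample without that enrichment, the input, is sequenced for comparison. Each genotype, WT and PLZFon, had a MeDIP and an input group, 4 groups in all, each with 1 library of CD1 tetramer-sorted thymic NKT cells from C57BL/6 mice. PLZF, encoded by Zbtb16, is the regulator that gives NKT cells their effector character, and the series title places its acetylation in NKT differentiation. The labels describe neither the PLZFon allele nor the age, sex or number of the mice, and whether cells of several mice were pooled is not given. They also name no antibody for PLZFon MeDIP and name one for WT input, against the titles, which were followed here. DNA reads cannot show whether the sorted cells expressed NKT markers. With 1 library per group no test of genotype was possible. Each difference is one between a pair of libraries, and all 95% intervals are exact binomial (Clopper-Pearson) intervals that cover counting error only.

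Ikzf2 encodes Helios, a zinc finger protein of the Ikaros family that is found in many regulatory T cells. Zeb2 encodes a zinc finger repressor that binds E-box sequences and acts in late effector T cells and NK cells. Foxp1 encodes a forkhead repressor known for keeping naive T cells quiescent, and it is transcribed from several alternative starts. In mammals most CpG sites along gene bodies are methylated, while CpG-dense promoters are usually free of methylation, and MeDIP recovers methylated CpG-rich fragments most readily.

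The libraries held 10635946 (PLZFon MeDIP) to 60689327 (WT input) reads. A window was listed with at least 10 raw reads over both MeDIP libraries, so an unlisted window had few reads or was left out, and is not one without methylation. A read was counted in about 4 windows, so reads over a locus are window sums divided by 4. Over all listed windows the depth-scaled PLZFon over WT ratio was 0.964 (0.963 to 0.966), and enrichment over input was 4.44-fold in WT and 4.22-fold in PLZFon.

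The annotated starts of Zeb2 and Foxp1 lay where no window was listed. RefSeq promoter sequences of build GRCm38.p6, which has the same primary assembly as mm10, had 7 entries for 2 of the 3 genes, 4 for Zeb2 and 3 for Foxp1 (no entry: Ikzf2). Each entry spans 300 bases, ending 50 bases after the start. None of the 7 entries overlapped a listed window. Over all 15055 entries within the listed range, 15.7% overlapped one. That share was 15.7% for entries with fewer than 5 CpG, 38.5% with 5 to 9, 13% with 10 to 19 and 1.59% with 20 or more.

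The 250 bases before the start are shown for the 3 Foxp1 starts, which divide the gene, and for the most CpG-rich Zeb2 start. All are on the minus strand and are written 5′ to 3′, with every CpG in capitals.
Foxp1 proximal start, chr6:99028299-99028548: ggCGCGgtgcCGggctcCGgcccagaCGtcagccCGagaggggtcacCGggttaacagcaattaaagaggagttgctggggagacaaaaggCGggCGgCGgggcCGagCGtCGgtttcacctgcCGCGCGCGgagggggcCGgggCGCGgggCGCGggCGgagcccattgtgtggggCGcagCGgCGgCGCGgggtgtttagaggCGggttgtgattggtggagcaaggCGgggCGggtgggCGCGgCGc
Foxp1 middle start, chr6:99266516-99266765: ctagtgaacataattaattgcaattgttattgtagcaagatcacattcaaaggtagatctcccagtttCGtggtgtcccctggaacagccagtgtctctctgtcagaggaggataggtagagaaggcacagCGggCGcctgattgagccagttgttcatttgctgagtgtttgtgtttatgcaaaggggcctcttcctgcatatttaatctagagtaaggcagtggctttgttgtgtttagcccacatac
Foxp1 distal start, chr6:99520994-99521243: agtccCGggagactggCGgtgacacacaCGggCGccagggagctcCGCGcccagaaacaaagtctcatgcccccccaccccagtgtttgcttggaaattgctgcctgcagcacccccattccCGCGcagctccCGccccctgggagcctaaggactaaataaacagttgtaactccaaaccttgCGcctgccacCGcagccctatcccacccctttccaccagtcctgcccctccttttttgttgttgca
Zeb2 start, chr2:45110278-45110527: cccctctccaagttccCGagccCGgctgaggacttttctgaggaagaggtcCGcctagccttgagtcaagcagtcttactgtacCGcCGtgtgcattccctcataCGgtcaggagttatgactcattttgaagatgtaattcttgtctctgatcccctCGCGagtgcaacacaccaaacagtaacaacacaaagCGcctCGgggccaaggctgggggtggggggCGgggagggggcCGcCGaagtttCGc

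The motif counted was CG, which reads the same on both strands. The proximal Foxp1 entry held 44 CpG in its 300 bases, and 2.25% of the 32851 entries of the RefSeq table held as many. The middle entry held 5 (62% held as many) and the distal entry 13 (37.9%). The Zeb2 entry shown held 19 (28.1%), and the other Zeb2 entries held 8 or 9. Thus the Foxp1 starts ranged from CpG-dense to CpG-poor.

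The nearest listed windows show how far each start lay from measured DNA. Around the proximal Foxp1 start they lay 3198 bp on one side, with 12 WT and 8 PLZFon raw MeDIP reads, and 1203 bp on the other, with 7 and 12. Around the CpG-poor middle start they lay 3615 bp away, with 4 and 7 reads, and 1586 bp away, with 10 and 4. The distal start had a listed window 693 bp away inside the gene, with 8 WT and 3 PLZFon reads, and the next one outward at 5108 bp, with 9 and 2. These windows held at most 12 raw MeDIP reads in either library.

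In Zeb2 a stretch of 13800 bp without a listed window (45101201 to 45115000) held 3 of the 4 annotated starts and the whole antisense RNA gene Zeb2os. It was the longest such stretch of the gene. The fourth start, at the right end of the gene, had listed windows 1242 bp and 3659 bp away. In Ikzf2 no window was listed over the last 7851 bp of the right end of the gene, and the stretch ran on outside it for 10400 bp in all. The last listed window there held 9 WT and 7 PLZFon raw MeDIP reads with 18 and 20 input reads.

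Within the gene bodies, listed windows were sparse in Ikzf2 and dense in Foxp1. Of the windows in each span, 8.34% were listed in Ikzf2, 14.1% in Zeb2 and 21% in Foxp1, against a median of 15% over the 7668 loci. Among the 1070 loci of at least 100 kb, where the median was 9.77%, these values stood at percentiles 44, 67.8 and 87.4. Ikzf2 is therefore near the middle of genes of its length, and Foxp1 is high among them.

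Listed windows formed runs of adjacent windows: 42 in Ikzf2, 59 in Zeb2 and 410 in Foxp1, with a median length of 3 windows in each. The gaps between runs had medians of 2600 bp in Ikzf2, 1350 bp in Zeb2 and 600 bp in Foxp1. The longest runs had 8, 9 and 14 windows. The genes thus differed in how closely the runs were spaced, not in their median length.

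Foxp1 was not evenly covered along its length. From its left end, the end of the transcripts, to the proximal start, a segment that transcripts from all 3 starts cross, 33.5% of windows were listed. Between the proximal and the middle start 17.2% were listed, and between the middle and the distal start 19.8%. The flanks of 100 kb had 12.9% and 12.7%. These segments were chosen after the values had been seen. The longest stretch of Foxp1 without a listed window had 13200 bp (99088201 to 99101400), in the middle segment. Of the RNA genes annotated inside Foxp1, the lncRNA genes Gm52870 (99204572 to 99234794) and Gm38865 (99114644 to 99128709) had the most listed windows, 43 and 18. These counts are not scaled to the length of the genes, so they do not show dense coverage.

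In the first Foxp1 segment, MeDIP exceeded the input 5.02-fold in WT (4.59 to 5.49) and 4.32-fold in PLZFon (3.9 to 4.78). In the middle segment it was 4.48 (4.11 to 4.88) and 4.03 (3.65 to 4.45), and in the distal one 4.34 (4.02 to 4.69) and 4.43 (4.06 to 4.83). Neighbouring intervals overlapped in each library. The mean CpG factor, the authors' score of the CpG content of a window, was 2.46, 2.21 and 2.13 in the same order. The PLZFon over WT ratios were 0.934 (0.85 to 1.03), 0.923 (0.84 to 1.01) and 1.02 (0.937 to 1.1), all with intervals that include equality.

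**Figure D1:**
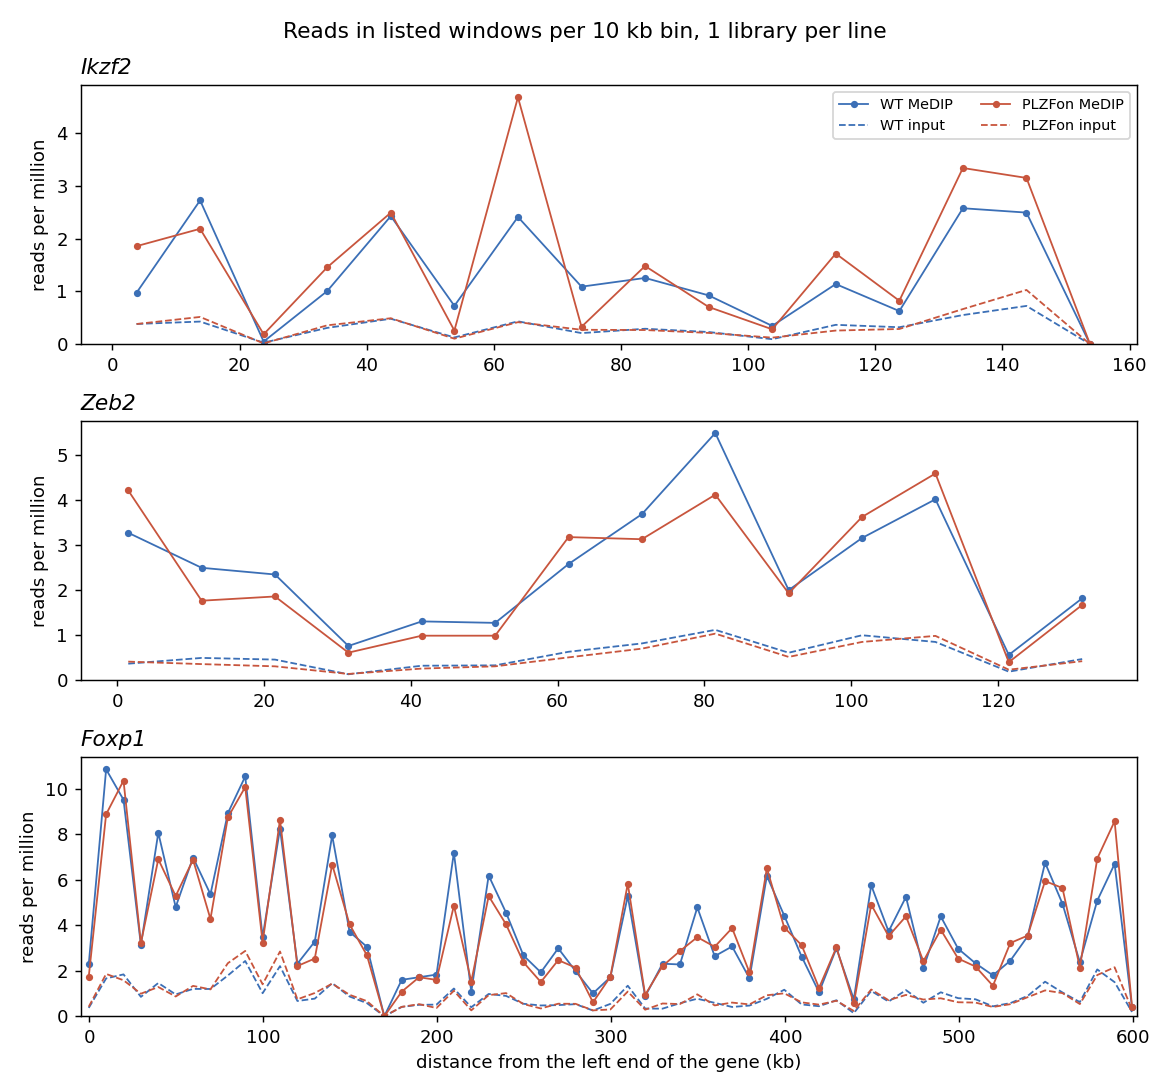
Depth-scaled reads (RPM, relative to the library total) in the listed windows of each 10 kb bin along Ikzf2, Zeb2 and Foxp1, with solid lines for MeDIP and dashed lines for input, 1 library per line. The WT and PLZFon MeDIP lines follow each other along Foxp1 and Zeb2 but part in places, as at 99130001 to 99140000 in Foxp1 (7.2 and 4.87 RPM). In Ikzf2 they part most at the bin with 36.5 WT and 49.8 PLZFon reads (2.41 and 4.68 RPM).

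MeDIP was first set against input, to see how strongly DNA of these genes was recovered in each genotype. Over Ikzf2 there were 315 WT and 265 PLZFon MeDIP reads, with 303 and 272 input reads. After scaling to depth, MeDIP exceeded the input 4.17-fold in WT (3.55 to 4.9) and 4.62-fold in PLZFon (3.88 to 5.49). Zeb2 had 526 and 351 MeDIP reads with 472 and 354 input reads, an excess over input of 4.46-fold in WT (3.93 to 5.07) and 4.7-fold in PLZFon (4.05 to 5.47). Foxp1 had 3643 and 2463 MeDIP reads with 3191 and 2732 input reads, 4.57-fold in WT (4.36 to 4.8) and 4.27-fold in PLZFon (4.04 to 4.51).

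In their listed windows, all 3 genes were thus pulled down at about the level of all listed windows. The library titled PLZFon MeDIP was enriched there like the WT one. Windows were listed by their MeDIP reads, a choice that raises MeDIP over input, so these values do not measure the whole genes. In the 3556 loci with at least 200 reads the median was 4.39 in WT and 4.17 in PLZFon. The authors' relative methylation score averaged 0.609 in WT and 0.577 in PLZFon over the windows of Ikzf2, 0.614 and 0.553 over Zeb2, and 0.623 and 0.565 over Foxp1. Over all listed windows these means were 0.625 and 0.57. In the windows looked at, the score followed raw reads without scaling to depth. At a CpG factor of 4, 39 raw reads gave 0.67 in either library, and 7 gave 0.45. PLZFon MeDIP was the shallower of the MeDIP libraries, so these means do not compare methylation between the genotypes.

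MeDIP over input went up with CpG content in Foxp1, as over all listed windows. In Foxp1, WT MeDIP over input went from 4.01 (3.68 to 4.37) at a CpG factor of 1 to 6.04 (5.38 to 6.8) at 4 or more. In PLZFon it went from 3.74 (3.39 to 4.13) to 5.82 (5.08 to 6.66). All listed windows went from 3.68 to 6 in WT and from 3.56 to 5.55 in PLZFon. In Zeb2 it was 4.37, 4.17, 4.1 and 5.63 over the classes in WT, and 4.1, 4.56, 4.58 and 6.13 in PLZFon. In Ikzf2 it was 3.31, 4.57, 4.76 and 5.25 in WT, and 4.04, 4.04, 6.44 and 5.52 in PLZFon. The highest class thus stood above the lowest in each gene and library. In both of these genes, which have fewer windows, the intervals of the lowest and highest class overlapped in both libraries.

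**Figure D2:**
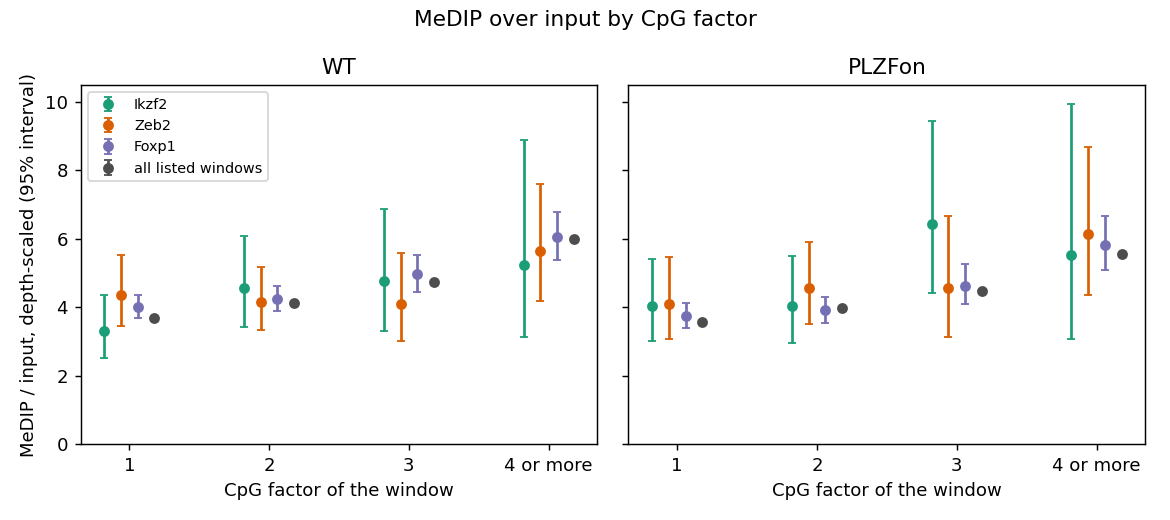
Depth-scaled MeDIP over input (y axis) by CpG factor of the window (x axis) in WT (left) and PLZFon (right), as points with 95% counting intervals for the 3 genes and all listed windows. Foxp1 stands at 6.04 in WT and 5.82 in PLZFon at a CpG factor of 4 or more, near the values of all listed windows.

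PLZFon MeDIP was then compared with WT MeDIP. The depth-scaled level of Ikzf2 was 20.8 RPM (reads relative to the library total) in WT and 24.9 in PLZFon, a ratio of 1.2 (1.02 to 1.42). The same ratio between its inputs was 1.08 (0.916 to 1.28). Zeb2 had levels of 34.7 and 33, a ratio of 0.951 (0.829 to 1.09), and its inputs gave 0.903 (0.785 to 1.04). Foxp1 had levels of 241 and 232, a ratio of 0.963 (0.914 to 1.01), and its inputs gave 1.03 (0.98 to 1.09). The intervals of Zeb2 and Foxp1 include equality, so neither direction is set. Their ratios were 0.987 and 0.998 with TMM factors, and 1 and 1.01 with DESeq2 size factors. The DESeq2 factors are medians over windows of few reads, which makes them coarse.

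None of the 3 passed a rule of at least 20 reads, a ratio of at least 2 either way and an interval excluding equality, which 0.443% of the 7668 loci passed (0.0913% higher and 0.352% lower). These were 7 higher and 27 lower loci, or 9 and 19 with TMM factors and 11 and 18 with DESeq2 size factors. At 1.5-fold none of the 3 passed, against 1.38% of loci. With no minimum size 1 of the 3, Ikzf2, had an interval off equality, as had 6.25% of loci, and 1.24% had one above it. Its ratio stood at percentile 91.1 of the 7668 loci, whose middle 90% ran from 0.7 to 1.3. Of the 3556 loci with at least 200 reads it stood at percentile 97.7, where Zeb2 stood at 46.4 and Foxp1 at 52.2. The middle 90% of those 3556 loci ran from 0.8 to 1.14.

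The Ikzf2 ratio lay between 1.1 and 1.27 under all settings tried, and its interval reached equality in some of them. It was 1.2 (0.996 to 1.45) where a read was taken to fall in 5 windows, 1.17 (0.953 to 1.43) in windows with a CpG factor of at least 2 and 1.25 (0.963 to 1.61) in windows with at least 20 MeDIP reads. Without both of its called 10 kb bins, 1 higher and 1 lower as described with the bins, it was 1.15 (0.958 to 1.39). Without the higher one alone, a choice that can only lower the ratio, it was 1.1 (0.92 to 1.32).

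The PLZFon over WT ratio kept no order with CpG content in Zeb2 or Foxp1. It was 0.863, 0.99, 0.941 and 1.02 over the classes from 1 to 4 or more in Zeb2, and 0.958, 0.985, 0.937 and 0.962 in Foxp1. In Ikzf2 it was 1.27, 1.04, 1.42 and 1.08. All these intervals include equality but that of the class of 3 in Ikzf2 (1 to 2.01 as rounded).

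The ratio was followed in 10 kb bins. A bin was called with at least 20 reads, a ratio of at least 1.5 either way and an interval excluding equality, which 2.08% of 60900 bins met (0.78% higher, 1.3% lower). In Ikzf2 2 of 11 bins with enough reads were called, 1 higher and 1 lower. In Zeb2 0 of 12 and in Foxp1 0 of 58 were called. At 2-fold 1 Ikzf2 bin was called, against 0.729% of bins, and at 1.2-fold 1 Foxp1 bin, against 3.04%. By the same 1.5-fold rule 0 bins of the 3 genes were called between the inputs, against 1.15% of bins in the table. Without a minimum fold, input intervals excluded equality in the Foxp1 bins 99030001 to 99040000, at 1.29 (1.01 to 1.65), and 99510001 to 99520000, at 1.44 (1.08 to 1.92). The share of all bins was not taken for the inputs by that looser rule.

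The called Ikzf2 bins were neighbours. The bin at 69590001 to 69600000 had 36.5 WT and 49.8 PLZFon MeDIP reads with 26.3 and 21 input reads, a ratio of 1.94 (1.24 to 3.06). It was the bin of Ikzf2 with the most MeDIP reads, with MeDIP over input at 5.57 in WT and 11.2 in PLZFon. The next bin, 69600001 to 69610000, had 16.5 and 3.5 reads with 12.8 and 13.8 input reads, a ratio of 0.302 (0.0657 to 0.982). The lower call, at the read minimum, ended under each of the 4 other scalings.

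The other Ikzf2 bins with enough reads ran from 0.763 to 1.91, all with intervals that include equality. Of the 11 bins 8 lay above 1, where 26661 of 60900 bins of the table did. The left-most bin had 14.8 WT and 19.8 PLZFon reads, a ratio of 1.91 (0.923 to 4.03). The bin with the highest WT enrichment (69540001 to 69550000, 6.36 times the input) had 41.3 and 23.3 reads and a ratio of 0.803 (0.461 to 1.37). The SD of the log2 ratio over bins was 0.76 in Ikzf2, 0.31 in Zeb2 and 0.27 in Foxp1, against 0.37 over all bins, and the median number of listed windows per bin was 8, 12.5 and 18 in that order.

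Zeb2 bins ran from 0.707 to 1.29 with a median of 0.884, 4 of 12 above 1. The lowest bin (44990001 to 45000000) had 37.8 WT and 18.8 PLZFon MeDIP reads, a ratio of 0.707 (0.384 to 1.26), and its input ratio was 0.723 (0.38 to 1.34). In the next bin MeDIP stood at 0.792 (0.433 to 1.41), and the inputs stood at 0.673 (0.337 to 1.3). All 4 intervals include equality. The bin with the most reads (45060001 to 45070000) had 83 and 43.8 reads, a ratio of 0.751 (0.508 to 1.1). The bin with the fewest (45100001 to 45110000), beside the annotated starts, had 8.5 and 4.25 reads in 4 listed windows.

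The highest Zeb2 bin lay at the left end of the gene (44980001 to 44990000), where the transcripts end. It had 49.5 WT and 44.8 PLZFon reads, a ratio of 1.29 (0.84 to 1.97). Enrichment there was the highest of all tested Zeb2 bins in both libraries, at 8.92 in WT and 10.2 in PLZFon over input. Its mean CpG factor was 4.17, against 2.4 over the gene.

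Foxp1 bins ran from 0.607 to 1.42 with a median of 0.956, and 24 of 58 lay above 1. The interval excluded equality in 1 of 58, as in 3.09% of all bins tested. That bin (99130001 to 99140000) had 109 WT and 51.8 PLZFon reads with 74 and 56.5 input reads, a ratio of 0.676 (0.476 to 0.949). The extremes held few reads: the highest (99140001 to 99150000) had 16.3 in each library and an input ratio of 0.653, and the lowest (99210001 to 99220000) had 15.3 and 6.5. The bin with the most reads (99010001 to 99020000) had 160 and 107 in 47 windows, a ratio of 0.956 (0.741 to 1.23).

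Levels followed each other along the genes. Across bins, which share libraries, depth and the number of listed windows, the Pearson correlation of depth-scaled WT and PLZFon MeDIP reads was 0.959 over 61 bins of Foxp1, 0.906 over 14 of Zeb2 and 0.867 over 16 of Ikzf2. In Foxp1 the highest WT enrichment was in the bin at 99310001 to 99320000, 8.06 times the input, and PLZFon stood there at 7.05 times.

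**Figure D3:**
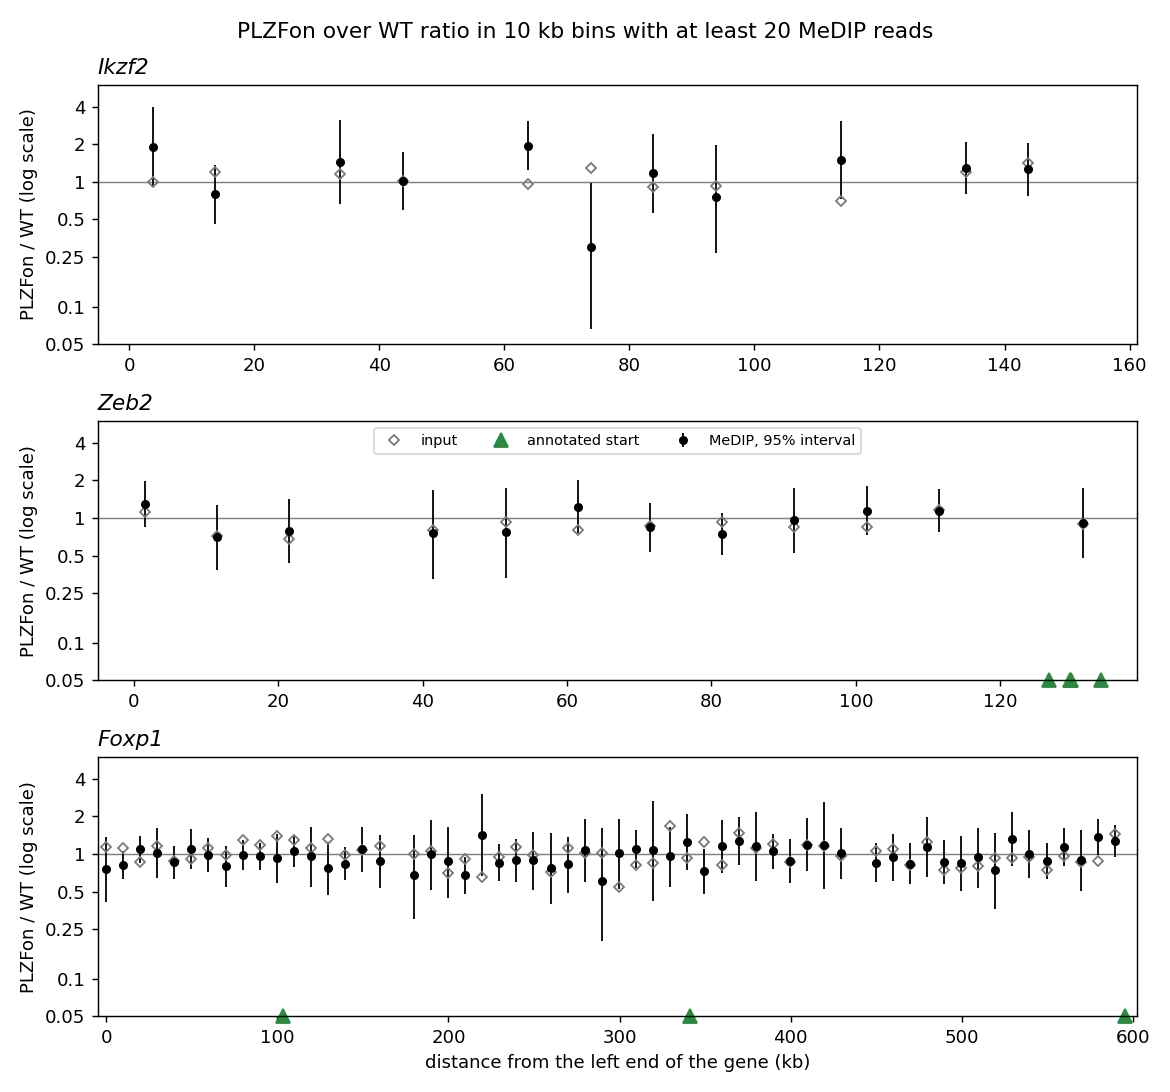
PLZFon over WT ratio (log axis) in 10 kb bins with at least 20 MeDIP reads along each gene, as black points with 95% counting intervals, with the input ratio as open diamonds and annotated starts as triangles (the RefSeq promoter table used has no entry for Ikzf2). Of the Ikzf2 bins the one at 1.94 and its neighbour at 0.302 have intervals away from equality, and Zeb2 and Foxp1 bins lie between 0.607 and 1.42.

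Single windows were compared next, which hold few reads and share them with their neighbours. Of windows with at least 20 raw MeDIP reads, 2 of 32 in Ikzf2, 0 of 68 in Zeb2 and 17 of 484 in Foxp1 were at least 2-fold apart with an interval excluding equality. Of all 409114 such windows 3.3% were, 1.13% higher and 2.17% lower. The Ikzf2 windows were both higher and belonged to 1 run. In Foxp1 2 were higher, in 2 runs, and 15 lower, in 10 runs.

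The Ikzf2 run (69599401 to 69600000, 6 windows) carried most of the reads of the called bin. Its windows had 13, 23, 30, 29, 20 and 9 WT and 11, 22, 39, 38, 33 and 22 PLZFon raw MeDIP reads. The input windows had 5, 6, 10, 10, 11 and 9 WT reads and 14, 11, 6, 4, 5 and 3 PLZFon reads, so the PLZFon input went down from 14 to 3 along the run. Over the run there were 31 WT and 41.3 PLZFon MeDIP reads, a ratio of 1.89 (1.16 to 3.12), with an input ratio of 1.02 (0.408 to 2.48). The last window had the highest ratio among Ikzf2 windows with at least 20 raw MeDIP reads, 3.48 (1.54 to 8.59).

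In Foxp1 a run of 4 windows (99376701 to 99377100) was nearly empty in PLZFon. The windows had 20, 21, 18 and 13 WT raw MeDIP reads against 2, 2, 0 and 0 in PLZFon, with 8, 8, 10 and 9 WT and 10, 9, 10 and 10 PLZFon input reads. Over the run this was 18 WT reads against 1, a ratio of 0.0791 (0.0019 to 0.501). The inputs were alike, with a ratio of 1.34 (0.483 to 3.79). In the authors' deposited table the third window had the smallest p of Foxp1, 6.14e-05, with an adjusted p of 0.184. The run was singled out because its second window had the lowest ratio among Foxp1 windows with at least 20 raw reads.

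**Figure D4:**
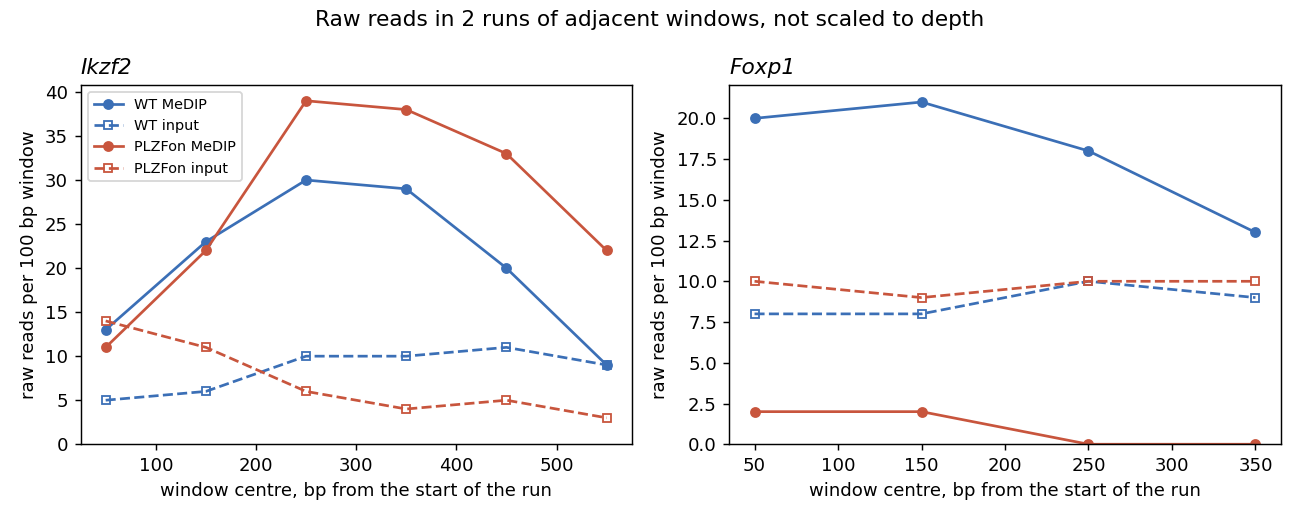
Raw reads per 100 bp window, not scaled to depth, along a run of 6 windows in Ikzf2 (left) and of 4 windows in Foxp1 (right), with MeDIP as filled circles and input as open squares. PLZFon MeDIP reaches 39 reads against 30 in WT in Ikzf2, and stays at 2 or fewer against 13 to 21 in Foxp1.

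The windows with the most MeDIP reads in Zeb2 and Foxp1 had intervals that include equality. The Zeb2 window with the most MeDIP reads (44989201 to 44989300, CpG factor 5) had 30 WT and 32 PLZFon raw reads, a ratio of 1.52 (0.894 to 2.59), in a run of 9 windows with a mean CpG factor of 5.22. That run had 44.5 and 42 reads, and MeDIP over input was 9.64 in WT and 11.4 in PLZFon. In Foxp1 the strongest window (99017301 to 99017400, CpG factor 4) had 39 reads in each MeDIP library, a ratio of 1.42 (0.89 to 2.28).

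The most CpG-rich listed windows did not hold the most reads. In Zeb2 the window with a CpG factor of 11 (45021501 to 45021600) had 9 WT and 6 PLZFon raw reads, with 8 and 4 in the inputs. In Foxp1 the window with a factor of 9 (99062801 to 99062900) had 16 and 9, and in Ikzf2 the highest factor was 5 (69578101 to 69578200), with 17 and 9. Their ratios, 0.949, 0.801 and 0.754, all had intervals that include equality.

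Extreme ratios were taken among windows with at least 20 raw MeDIP reads. Of these, the lowest Ikzf2 window (69548301 to 69548400) had 20 WT and 8 PLZFon reads, a ratio of 0.57 (0.217 to 1.35). In Zeb2 the lowest (44996101 to 44996200) had 21 and 6, a ratio of 0.407 (0.134 to 1.04), and the highest (44989001 to 44989100) had 10 and 15, a ratio of 2.14 (0.898 to 5.32). In Foxp1 the highest (99152401 to 99152500) had 7 and 15, a ratio of 3.05 (1.17 to 8.85).

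The authors' own edgeR comparison also had 1 MeDIP library per genotype. Its p-values therefore have no replicates behind them and do not test genotype. By the authors' deposited table, 0 of the 1584 windows had an adjusted p below 0.05, against 0.0144% of all listed windows. Unadjusted p-values below 0.05 in the authors' deposited table were held by 8 Ikzf2 windows (6.06%), 3 Zeb2 windows (1.56%) and 30 Foxp1 windows (2.38%), against 3.31% of all listed windows. The smallest p in that deposited table was 0.00133 in Ikzf2 (adjusted p of 0.936) and 0.0213 in Zeb2 (adjusted p of 1). The Ikzf2 window was the last one of the run described above, and the Zeb2 window (45031601 to 45031700) had 15 WT and 2 PLZFon reads.

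The surroundings of the genes were measured in the same way over 100 kb on each side. Beside Ikzf2 the ratios were 0.919 (0.749 to 1.13) on the left and 1.04 (0.913 to 1.18) on the right, where MeDIP was 6.42 times the input in WT, above the 4.17 within the gene. Beside Zeb2 they were 1.01 (0.766 to 1.32) and 1.15 (0.941 to 1.4), and beside Foxp1 1.01 (0.868 to 1.17) and 1.09 (0.93 to 1.28). All 6 intervals include equality. The inputs of the left Foxp1 flank stood at 0.824 (0.698 to 0.972). Listed windows made up 5.3% and 8.9% of the Zeb2 flanks, fewer than within Zeb2, and 9.3% and 11.4% of the Ikzf2 flanks.

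Beyond the 3 genes, the ratio was taken over a list of 43 related regulators: other Ikaros, ZEB and FOXP family genes, corepressors they work with and T cell genes of the same programmes. All 43 matched the gene table, 15 lay in its listed range and 13 had at least 20 reads. None of the 13 passed the 2-fold rule, which 0.443% of all 7668 loci passed. The interval of every one included equality, and 6.25% of all loci had one that did not. Counts of 0 among 13 are near those shares. Of the 13, 3 lay above 1 and 10 below (5 and 8 with DESeq2 size factors). Their median ratio was 0.921, against 0.959 over all loci, of which 37.1% lay above 1.

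Of the family members, Ikzf5, an Ikaros family gene, had 74.5 WT and 58.3 PLZFon reads, a ratio of 1.11 (0.776 to 1.59). Foxp2, the paralog of Foxp1 on the same chromosome, had 387 and 266, a ratio of 0.979 (0.835 to 1.15), with 3.08% of its windows listed. Among the 13 with at least 20 reads the highest was Tgfbr1, a receptor chain for TGF-beta, at 1.28 (0.755 to 2.15) on 33.8 and 30.3 reads. The lowest of the 13 was Id3, an inhibitor of E proteins, at 0.532 (0.189 to 1.32) on 18.8 and 7 reads. Ctbp2, a corepressor gene, had the most reads of the list, 1029 and 697, and stood at 0.964 (0.874 to 1.06).

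**Figure D5:**
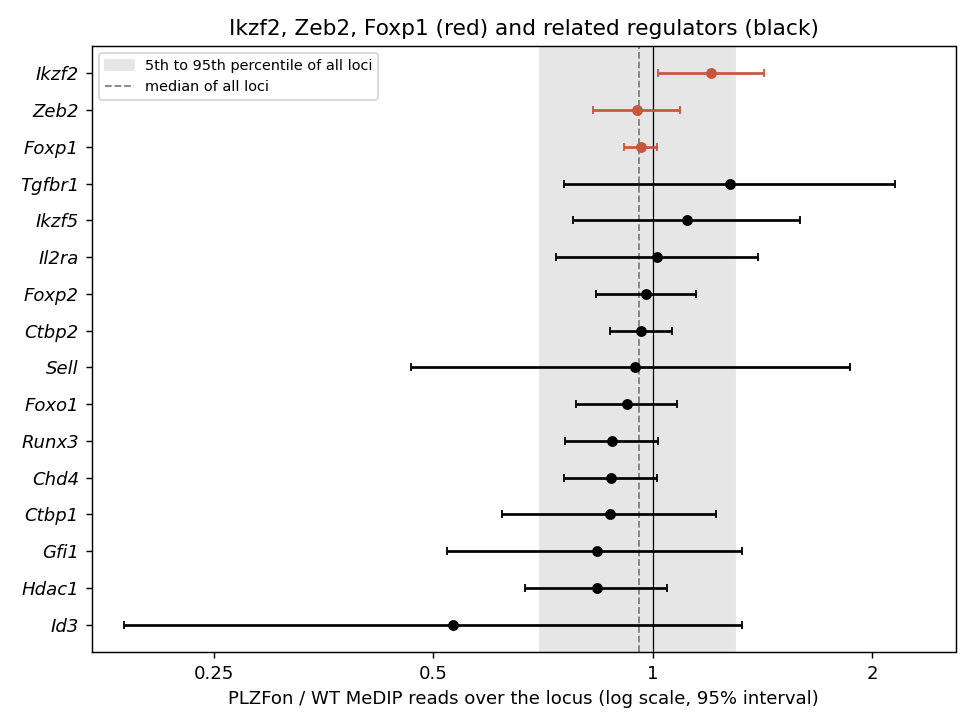
PLZFon over WT ratio of MeDIP reads (log axis) over Ikzf2, Zeb2 and Foxp1 (red) and the 13 related regulators with at least 20 reads (black), with 95% counting intervals, the median of all loci (dashed) and their 5th to 95th percentiles (shaded). Of the loci shown, Ikzf2 at 1.2 is the one whose interval does not reach equality.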

How the data were processed

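BWA, edgeR and the mm10 build are named in the submitters' processing notes, without versions. Per the file headers, the reads came from sorted alignments filtered for unique ones. The authors deposited raw counts per 100 bp window for 4 libraries, RPKM values made from them, a CpG factor (a score) and a relative methylation score whose formula is not given in the sources used here. The authors' deposited edgeR columns hold log2 fold changes, p-values and adjusted p-values. The table ends on chromosome 7 at 139972600.

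Library totals were recovered from counts over RPKM and used as scaling. In the inputs the squared difference between windows over their sum levelled off at a distance of 4 windows (1.16 in WT against 1.23 at 8). In MeDIP it still rose, from 4.19 to 4.76 in WT and from 3.95 to 4.76 in PLZFon, so division by 4 is less certain in both MeDIP libraries. If a MeDIP read falls in more than 4 windows, the intervals given here are too narrow. Gene spans came from the GRCm38.p6 gene table, which gives no strand. Ratios carry exact (Clopper-Pearson) 95% intervals of the binomial share, and reads without molecular identifiers are not independent molecules.

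The genes, the related list and the rules were chosen with earlier results of these data known. Named were the 3 genes, list members of the 3 families and those with the highest and lowest ratio, and in each gene the bins and windows with the highest and lowest ratio, the most and the fewest reads (bins), the highest CpG factor (windows) and those nearest the starts. Ctbp2, flanks, runs, the segments of Foxp1, the windows with the smallest p and a few further bins were added after their values were seen. The rules were also run on simulated reads. These were drawn from the binomial model that the intervals assume, without variation between libraries. That run therefore cannot show how often the rules err between real libraries. Tools were Python 3.11.15, scipy 1.17.1, R 4.3.3, edgeR 4.0.16 (TMM) and DESeq2 1.42.0 (size factors).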

Additional observations from a re-analysis of the deposited data

How the results depend on the processing

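Of 133 values under alternative settings, 107 stayed within the interval of the reported value or within 1.5 times the reported count, 26 moved and 0 reversed. The ratios of Ikzf2 (1.1 to 1.27) and Zeb2 (0.951 to 1) stayed within their intervals under every setting tried, and Foxp1 moved to 1.01 with DESeq2 size factors. In windows with at least 20 MeDIP reads, MeDIP over input rose in WT and PLZFon to 7.32 and 7.35 (Ikzf2), 6.55 and 6.33 (Zeb2) and 6.63 and 6.00 (Foxp1). At a CpG factor of at least 2 it was 4.86 and 4.53 in Foxp1. Ikzf2 had 1 called bin in place of 2 with TMM factors, DESeq2 size factors, listed-window sums, CpG factor classes, windows with at least 20 reads, a read in 5 windows, bins of 20 kb, a shifted grid and a 2-fold minimum. Foxp1 had 1 called bin in place of 0 in windows with at least 20 reads, with a 1.2-fold minimum and with none, and 2 with bins of 5 kb. The 34 called loci became 53 and 19 with a read in 3 and 5 windows, 106 with a 1.5-fold minimum and 479 with none. The cause of these moves was not tested, except for those that follow by construction. A lower minimum calls more, and taking windows by their MeDIP reads raises MeDIP over input. Counting a read in fewer windows narrows the intervals, and in more windows widens them. No paired analysis was possible because each group has 1 library. Leaving out a bin of Ikzf2 was chosen after seeing the data. Depth limits what bins and windows can show, since most hold few reads.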
